A study of Mus musculus with 116 samples.

Results

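The basal machinery of RNA polymerase II (Pol II) transcription was followed at the RNA level through mouse oocytes and preimplantation embryos. Its genes were taken by a fixed pattern of gene symbols, which covers the Pol II subunits Polr2a to Polr2m, the general transcription factors TFIIA, TFIIB, TFIIE, TFIIF and TFIIH, the TATA-binding protein Tbp with its relatives Tbpl1 and Tbpl2, and the TBP-associated factors (TAFs). The pattern found 49 genes among the 24028 symbols present in all 4 deposited tables, and all 49 were listed in every table. They fell into 13 Pol II genes, 2 of TFIIA, 1 of TFIIB, 17 of TFIID (Tbp and 16 TAFs), 2 of TFIIE, 2 of TFIIF, 7 of the TFIIH core, 3 of the TFIIH kinase module, and the 2 relatives of Tbp. Polr2m, which encodes a protein that associates with Pol II, and Taf15, which encodes an RNA-binding protein found with part of TFIID, are not core subunits but match the pattern.

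These factors assemble at gene starts into the preinitiation complex. TFIID binds the core promoter through TBP and the TAFs, TFIIA stabilises TBP on DNA, and TFIIB links TBP to the polymerase. TFIIF arrives with Pol II, TFIIE recruits TFIIH, and TFIIH opens the DNA and phosphorylates the tail of the largest Pol II subunit. In the mouse ovary the growing oocyte uses TBPL2, a close relative of TBP made in oocytes, and females that lack it are sterile. TBP takes over in the embryo, when the zygotic genome is activated.

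Each RNA group came from wild-type mice, with 8-week-old females given PMSG and hCG, the hormones that trigger ovulation, and the embryos came from C57BL/6N females crossed with PWK males. The groups were mature MII oocytes taken 13 h after hCG, zygotes at PN5, the last pronuclear stage (30 h), early 2-cell embryos (36 h), late 2-cell embryos labelled mTBE, late 2-cell control embryos, and ICM, the inner cell mass of the blastocyst (98 h). Both late 2-cell groups were zygotes collected 23 h after hCG and kept in culture for 14 h, the mTBE group with 60 uM DRB, which blocks transcription elongation by Pol II, and the control group with 0.1% DMSO. The drug or its solvent was then removed and culture went on for 12 h. The MII, PN5 and 2-cell groups had 1 library each, made from pooled RNA of about 100 oocytes or embryos after removal of ribosomal RNA. ICM had 2 libraries made with Smart-seq2, which captures polyadenylated RNA. Values were FPKM, fragments scaled by transcript length and library, so levels of different genes can be set side by side within a library. Whether the length scaling holds equally for short and long transcripts was not tested. FPKM gives shares of a library, and in pooled embryos less RNA of a gene per cell and fewer cells holding it cannot be told apart.

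The libraries held 9396 to 13022 symbols at 1 FPKM or more. Their FPKM summed to 212707 in early 2-cell, the lowest, 288512 in MII, the next, and 474686 in ICM replicate 2, the highest. Levels in early 2-cell were thus low over all symbols together. The PN5 and late 2-cell libraries share 1 table, the ICM libraries share a second, and MII and early 2-cell have a table each, so values set across these were normalized separately. Oocyte markers (8 of 8 at 1 FPKM or more in each total RNA library) summed to 3630 FPKM in MII. Their sum was 3110 FPKM in PN5, 934 in early 2-cell, 1990 in mTBE, 1340 in control embryos, and 119 and 148 in ICM. Bmp15 weighed most in several of these sums, at 582 FPKM in MII, 1390 in PN5, 1470 in mTBE and 766 in control embryos. It alone placed the mTBE sum above that of control embryos. Gdf9 (184 FPKM in mTBE, 266 in control embryos), Zp1, Zp3 and Mos were lower in mTBE embryos, and Zp2, Ooep and Nlrp5 higher. The 7 markers of the 2-cell stage summed to 1.25 FPKM in MII, 6.54 in PN5, 52.2 in early 2-cell, 147 in mTBE and 262 in control embryos. Not every marker followed the sum, since Dux was at 25.4 FPKM in early 2-cell, 1.68 in mTBE and 0.991 in control embryos. The libraries labelled ICM held 4 ICM markers at summed levels of 449 and 370 FPKM, against 277 to 319 FPKM in the other libraries. Of the 4, Nanog was at 105 and 133 FPKM in ICM and at 3.51 FPKM or less in the other libraries. Pou5f1 (280 and 163 FPKM in ICM, 203 in control embryos), Sall4 (59.3 and 71.4 in ICM, 85 in control embryos) and Sox2 (5.25 and 2.85 in ICM, 10.1 in control embryos) did not set ICM apart. They also held all 5 trophectoderm markers, with summed levels of 1740 and 1480 FPKM and Krt18 at 1120 and 991 FPKM, against 24.5 FPKM summed in late 2-cell control embryos. Their part in the ICM levels below was not tested.

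Promoter sequences of the contrasted pair, Tbpl2 and Tbp, and of the largest polymerase subunit, Polr2a, are shown side by side. They are the 200 bases before the annotated start in RefSeq (GRCm38.p6, not the mm9 build of the authors), 5′ to 3′ on the strand of the gene. Capitals mark 3 letter strings known from promoters, searched on either strand: TATAAA of the TATA box, CCAAT of the CCAAT box and GGGCGG of the GC box. Tbpl2 lies at chr2:24096596-24096795 on the minus strand, Tbp at chr17:15499688-15499887 on the plus strand and Polr2a at chr11:69758634-69758833 on the minus strand.
Tbpl2: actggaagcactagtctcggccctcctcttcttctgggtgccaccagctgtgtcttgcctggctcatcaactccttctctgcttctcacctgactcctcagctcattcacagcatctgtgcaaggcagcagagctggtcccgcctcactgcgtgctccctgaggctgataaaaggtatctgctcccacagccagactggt
Tbp: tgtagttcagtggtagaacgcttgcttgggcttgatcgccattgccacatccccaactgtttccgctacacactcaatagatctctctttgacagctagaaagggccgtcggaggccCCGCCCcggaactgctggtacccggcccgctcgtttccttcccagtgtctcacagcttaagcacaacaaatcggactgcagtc
Polr2a: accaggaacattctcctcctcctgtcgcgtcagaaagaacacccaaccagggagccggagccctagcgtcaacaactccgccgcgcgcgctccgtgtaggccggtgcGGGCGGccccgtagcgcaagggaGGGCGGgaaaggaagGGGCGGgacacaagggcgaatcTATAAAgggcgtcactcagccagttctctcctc

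The Polr2a window held TATAAA from 33 to 28 bases before the start and GGGCGG at 3 places, and the Tbp window held GGGCGG once, on the other strand, 83 to 78 bases before the start. Only exact strings were searched. The Tbpl2 window held none of the 3, though shortly before the start it has gataaa, which differs from TATAAA in its first letter. It also had 3 CG pairs, against 11 in the Tbp window and 19 in the Polr2a window. Of the 49 genes, 39 had a window in the table. GGGCGG was in 24 of these 39 (61.5%), against 33.7% of all 27025 genes with a window, TATAAA in 6 (15.4%) against 11.7%, and CCAAT in 11 (28.2%) against 32.7%. The windows of these genes had a median of 60.5% GC and 17.0 CG pairs, against 53.0% and 5.00 over all windows. The part of this composition in the GGGCGG share was not tested. A match describes the letters only.

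Tbpl2 RNA was low in every library and Tbp RNA lay above it in every library. Tbpl2 was at 2.80 FPKM in MII, 6.14 in PN5, 1.42 in early 2-cell, 4.52 in mTBE and 4.33 in control embryos, and was listed at 0 in both ICM libraries. Tbp, the TFIID subunit that contacts DNA, was at 30.8 FPKM in MII, 37.0 in PN5, 9.49 in early 2-cell, 11.5 in mTBE, 19.1 in control embryos, and 26.9 and 16.5 in ICM. The gap between the 2 genes was narrowest in the mTBE library. Tbpl2 minus Tbp, as a difference of log2(FPKM + 1) within a library, was -3.06 in MII, -2.41 in PN5, -2.12 in early 2-cell, -1.18 in mTBE, -1.91 in control embryos, and -4.80 and -4.13 in ICM. This difference does not depend on how tables were normalized apart from the added 1 FPKM.

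Expressed as a share of the FPKM of both genes, Tbpl2 made up 8.35% in MII, 14.2% in PN5, 13.0% in early 2-cell, 28.2% in mTBE and 18.5% in control embryos. In MII oocytes Tbpl2 ranked 46 of the 49 genes from the highest, and Tbp ranked 17. Tbpl2 nevertheless stood above 65.5% of all 24028 symbols in MII, and Tbp above 90.2%. Between mTBE and control embryos Tbpl2 differed by 0.05 on the log2(FPKM + 1) scale and Tbp by -0.68, both inside the 2-fold limit used below. RNA levels say nothing of protein, which was not measured in these tables.

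Tbpl1, a TBP relative that does not bind the TATA box and is best known for a role in spermatogenesis, was low in the oocyte and highest from the late 2-cell stage on. It was at 1.73 FPKM in MII, 4.45 in PN5, 1.53 in early 2-cell, 12.3 in mTBE, 13.4 in control embryos, and 12.4 and 15.1 in ICM. Tbpl2 was above Tbpl1 in MII and PN5 and below it in both late 2-cell libraries and both ICM libraries. In early 2-cell they were 0.07 apart on the log2(FPKM + 1) scale. In mTBE embryos Tbpl1 and Tbp differed by 0.08 on that scale, whereas in MII Tbp was 17.8 times Tbpl1 in FPKM.

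**Figure D1:**
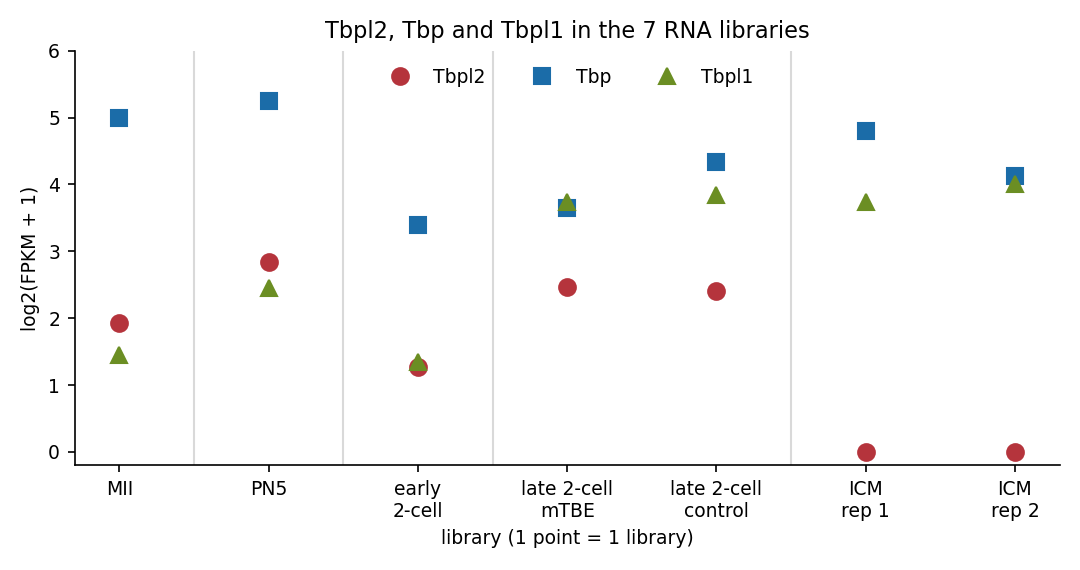
Levels of Tbpl2, Tbp and Tbpl1 in each RNA library, as log2(FPKM + 1), 1 point for each library; vertical lines part neighbouring libraries that lie in different deposited tables, and the ICM pair shows the only replicates. Tbp lies above Tbpl2 in all 7 libraries, Tbpl1 approaches Tbp from the late 2-cell stage on, and Tbpl2 is at 0 in ICM.

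TFIID RNA was present from the oocyte on and was, by its median, lowest in the ICM libraries. The median of the 17 genes was 24.8 FPKM in MII, 37.0 in PN5, 12.5 in early 2-cell, 39.3 in mTBE and 45.7 in control embryos, and 7.44 and 6.09 in ICM. Taf3, whose protein reads a methylated histone H3 tail, was the highest TFIID gene of the oocyte, at 75.1 FPKM in MII, 85.9 in PN5, 48.7 in early 2-cell, 72.3 in mTBE, 67.2 in control embryos, and 2.58 and 2.69 in ICM. Taf2, whose protein contacts the initiator element, was the lowest there, at 4.27 FPKM in MII, 9.21 in PN5, 3.44 in early 2-cell, 23.3 in mTBE, 22.5 in control embryos, and 6.03 and 4.17 in ICM. Taf3 was thus high in all 5 total RNA libraries and low in both ICM libraries, while Taf2 was highest in the late 2-cell libraries. The highest TFIID gene was 17.6 times the lowest in MII, 23.0 times in early 2-cell and 9.41 times in control embryos. The 9 TFIID genes not described singly (Taf1, Taf5, Taf6, Taf8, Taf10, Taf11, Taf12, Taf13 and Taf15) lay between 5.21 and 49.8 FPKM in MII, 6.69 and 63.5 in PN5, 3.28 and 75.2 in early 2-cell, 6.59 and 82.8 in mTBE, and 11.2 and 57.9 in control embryos. In ICM they lay between 2.19 and 45.0 FPKM in replicate 1 and between 1.47 and 55.3 in replicate 2. Taf1, the largest TAF, was at the low end of these 9 in MII, PN5 and early 2-cell embryos, and Taf15 in control embryos and both ICM libraries.

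Paralogous TAFs divided unequally between stages. Taf4a encodes the broadly expressed TAF4, and its paralogue Taf4b is known for its need in oocyte and germ cell development. Taf4b was at 6.16 FPKM in MII, 11.3 in PN5, 8.18 in early 2-cell, 40.6 in mTBE, 51.6 in control embryos, and 5.48 and 5.78 in ICM. Taf4a was at 45.5 FPKM in MII, 54.6 in PN5, 59.5 in early 2-cell, 66.4 in mTBE, 61.9 in control embryos, and 3.52 and 1.93 in ICM. The oocyte RNA was therefore mostly Taf4a, with Taf4b at 11.9% of their sum in MII and 17.1% in PN5. The share of Taf4b was 38.0% in mTBE and 45.5% in control embryos, and 60.9% and 75.0% in ICM, where both genes were low.

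Taf9b and Taf9 encode close relatives that share a place in TFIID. Taf9b was at 27.4 FPKM in MII, 55.1 in PN5, 8.44 in early 2-cell, 39.3 in mTBE and 31.8 in control embryos, and at 0.0252 and 0 in ICM. Taf9 was at 58.0 FPKM in MII, 83.3 in PN5, 12.5 in early 2-cell, 70.9 in mTBE, 105 in control embryos, and 133 and 115 in ICM. Both were present up to the late 2-cell stage and Taf9 alone was above 1 FPKM in ICM. The share of Taf9b in their sum lay between 23.2% and 40.3% in the 5 total RNA libraries. Taf9 has a named pseudogene, and reads of near-identical copies may have been divided between them.

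Taf7l and Gtf2a1l, paralogues known from male germ cells that the symbol pattern leaves out, were high at different stages. Taf7l was listed at 0 FPKM in MII and PN5, at 0.0133 in early 2-cell, 8.75 in mTBE and 5.40 in control embryos, and at 0 in both ICM libraries. Taf7, its widely expressed counterpart in TFIID, was at 41.4 FPKM in MII, 92.6 in PN5, 34.4 in early 2-cell, 37.2 in mTBE, 46.0 in control embryos, and 51.8 and 64.2 in ICM. Taf7l was thus above 1 FPKM in the late 2-cell libraries alone among these 7. Gtf2a1l, a germ cell form of the large TFIIA subunit, was at 19.1 FPKM in MII, 6.90 in PN5, 3.04 in early 2-cell, 3.14 in mTBE, 2.33 in control embryos, and 0.124 and 0 in ICM. It was highest in the oocyte and lower in every other library.

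**Figure D2:**
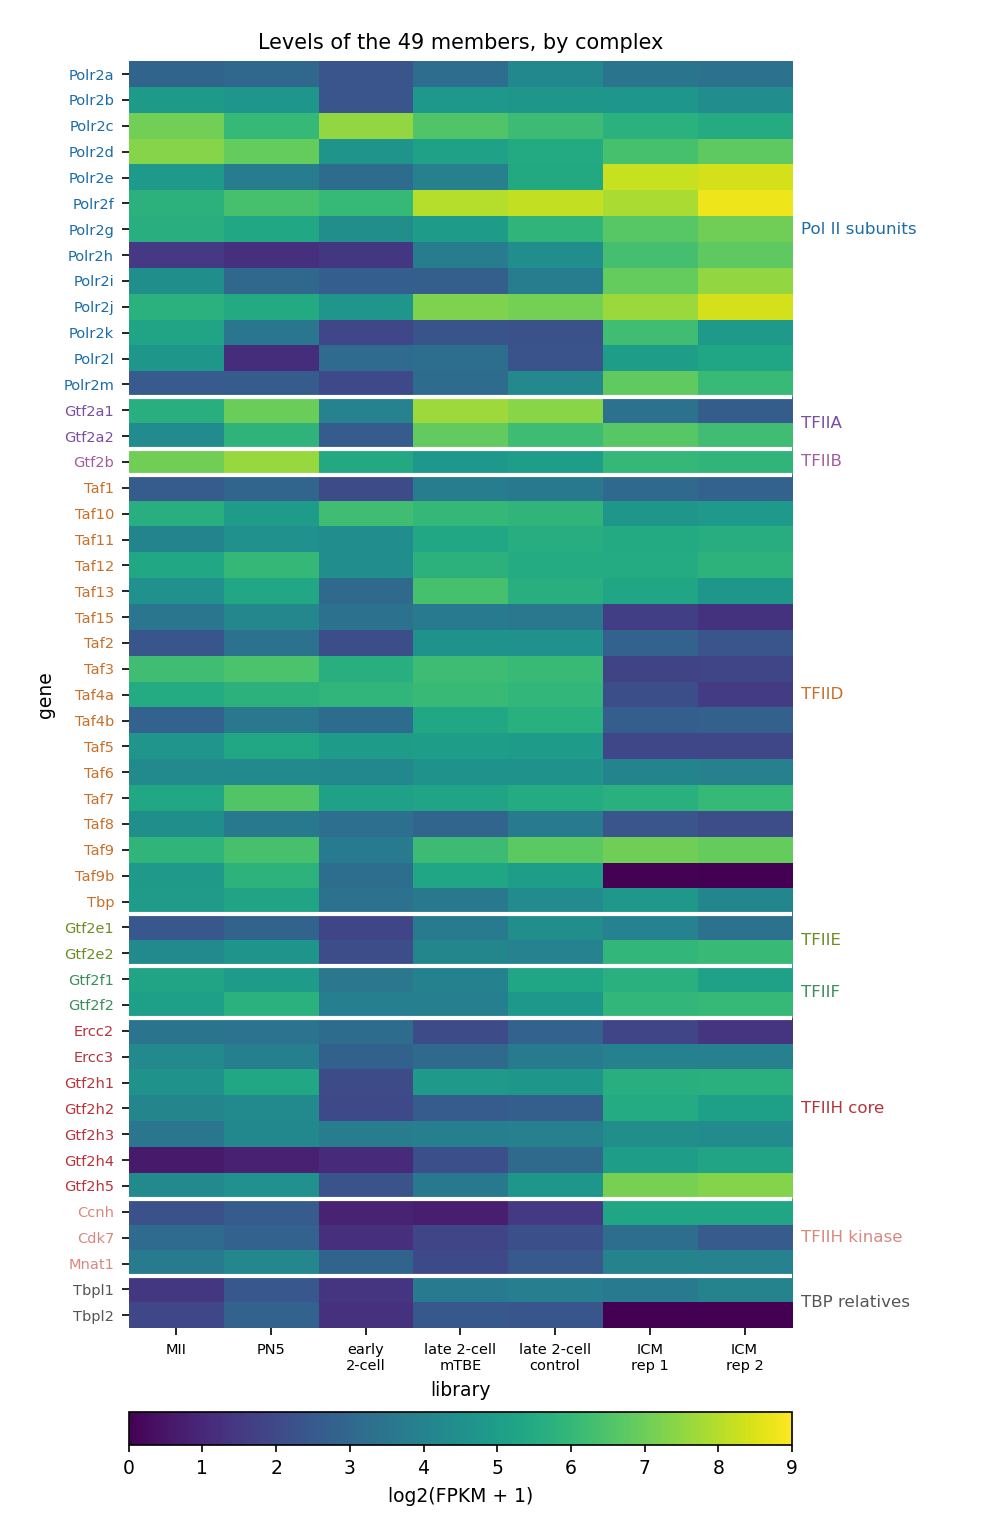
Level of each of the 49 genes (rows, grouped by complex) in the 7 RNA libraries (columns in order of development), as colour for log2(FPKM + 1). Several TFIID rows darken in the ICM columns (Taf3, Taf4a, Taf5, Taf9b), and several Pol II rows brighten there (Polr2e, Polr2h, Polr2i).

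The 13 Pol II genes were far from equal in RNA, although their proteins assemble into 1 enzyme. Polr2d, which encodes a stalk subunit, was the highest in the oocyte, at 165 FPKM in MII, 116 in PN5, 24.3 in early 2-cell, 34.9 in mTBE, 44.5 in control embryos, and 83.1 and 109 in ICM. Polr2h, which encodes a small subunit that all nuclear RNA polymerases share, was the lowest, at 1.82 FPKM in MII, 1.31 in PN5, 1.76 in early 2-cell, 12.6 in mTBE, 20.2 in control embryos, and 79.6 and 109 in ICM. Polr2d was 90.8 times Polr2h in MII, while in the second ICM library both stood at 109 FPKM. Polr2d and Polr2k have named pseudogenes, and their levels are uncertain for that reason.

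Polr2a, which encodes the largest, catalytic subunit, was low beside its partners throughout. It was at 6.48 FPKM in MII, 7.26 in PN5, 4.14 in early 2-cell, 8.20 in mTBE, 17.4 in control embryos, and 10.1 and 9.57 in ICM. Its rank from the highest among the 13 genes was 11 in MII, 9 in PN5, 10 in early 2-cell, mTBE and control embryos, and 13 in both ICM libraries. The control library held its highest level and the early 2-cell library, which also had the lowest summed FPKM, its lowest. Polr2b, the second largest subunit, chosen after its values were seen, was at 28.7 FPKM in MII, 25.7 in PN5, 4.15 in early 2-cell, 26.5 in mTBE, 26.2 in control embryos, and 25.8 and 20.5 in ICM. Polr2b was thus above Polr2a in every library, by the least in early 2-cell embryos. Among the smaller subunits Polr2f, which all nuclear RNA polymerases share, was at 81.8 FPKM in PN5, 252 in mTBE, 286 in control embryos, and 230 and 435 in ICM, the highest of Polr2c, Polr2f, Polr2g, Polr2j, Polr2k and Polr2l in each of these libraries. In MII and early 2-cell embryos Polr2f was at 53.8 and 63.8 FPKM, below Polr2c at 134 and 185 FPKM, and in ICM replicate 1 it was below Polr2e.

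Gtf2b was high in the oocyte and zygote, and Gtf2a1 in the late 2-cell embryo. Gtf2a1, the large TFIIA subunit, was at 50.2 FPKM in MII, 125 in PN5, 14.8 in early 2-cell, 203 in mTBE, 166 in control embryos, and 9.24 and 5.22 in ICM. Beside it, Gtf2a1l made up 27.6% of the sum of both genes in MII and 1.38% in control embryos. Gtf2b, the only TFIIB gene, was at 133 FPKM in MII, 193 in PN5, 43.4 in early 2-cell, 27.0 in mTBE, 31.5 in control embryos, and 63.3 and 58.0 in ICM. Gtf2a1 was thus highest and Gtf2b lowest in the late 2-cell libraries. TFIIE (Gtf2e1 and Gtf2e2) had complex medians of 11.4 FPKM in MII, 15.3 in PN5, 2.99 in early 2-cell, 14.4 in mTBE, 17.9 in control embryos, and 38.4 and 38.1 in ICM. Its early 2-cell median was the lowest of the 7, in the library that also had the lowest summed FPKM.

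The TFIIH core, which holds the helicases, had its lowest median in early 2-cell and its highest in ICM, as was also true of summed FPKM. The medians of its 7 genes were of 16.2 FPKM in MII, 17.6 in PN5, 3.96 in early 2-cell, 7.72 in mTBE, 11.9 in control embryos, and 31.0 and 32.8 in ICM. Gtf2h1, a scaffold subunit, led the core in MII, with 23.0 FPKM there, 41.2 in PN5, 3.18 in early 2-cell, 27.2 in mTBE, 26.2 in control embryos, and 49.1 and 51.4 in ICM. Gtf2h4, whose protein anchors the helicase Ercc3, was the lowest, at 0.554 FPKM in MII, 0.764 in PN5, 1.14 in early 2-cell, 3.55 in mTBE, 7.71 in control embryos, and 31.0 and 37.0 in ICM. Gtf2h4 was the only one of the 49 genes under 1 FPKM in MII and in PN5.

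The kinase module, which phosphorylates the Pol II tail, had a lower median than the TFIIH core in every library. Mnat1, its assembly factor, was at 11.8 FPKM in MII, 17.0 in PN5, 6.47 in early 2-cell, 2.94 in mTBE, 4.78 in control embryos, and 15.2 and 14.9 in ICM. Ccnh, the cyclin partner of the kinase Cdk7, was at 3.65 FPKM in MII, 5.04 in PN5, 0.842 in early 2-cell, 0.688 in mTBE, 1.87 in control embryos, and 37.9 and 38.6 in ICM. Both were lowest in the mTBE library. The module summed to 23.2 FPKM in MII, 28.1 in PN5, 8.66 in early 2-cell, 6.33 in mTBE and 10.3 in control embryos, against 61.6 and 58.5 in ICM.

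Setting mTBE beside control late 2-cell embryos shows how RNA of the machinery stood 12 h after a 14 h block of transcription was lifted. A gene was counted as higher or lower when log2(FPKM + 1) differed by at least 1, about 2-fold, and it was measured when either library of the pair held 1 FPKM or more; with 1 library a group there is no replicate check and no test. Of the 49 genes, 6 were lower and 0 were higher in mTBE embryos, or 12.2% lower. Over all 13726 symbols measured 9.99% were lower and 5.57% higher, so the share of lower genes was near the background. The median difference was -0.18 over the 49 genes and -0.05 over all symbols.

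By complex, 4 of the 13 Pol II genes were lower (median difference -0.34), as were 1 of the 2 TFIIF genes and 1 of the 7 TFIIH core genes (-0.56), and 0 of the 17 TFIID genes (0.06). Polr2e, a subunit shared by all nuclear RNA polymerases, was at 14.1 FPKM in mTBE and 43.0 in control embryos, a difference of -1.54. Over the other libraries it was at 27.4 FPKM in MII, 13.2 in PN5, 8.10 in early 2-cell, and 302 and 340 in ICM. Its mTBE level was thus near that of PN5 zygotes. Gtf2f1, the large TFIIF subunit, was at 14.5 FPKM in mTBE and 38.8 in control embryos (-1.36). Its other levels were 36.8 FPKM in MII, 30.5 in PN5, 11.0 in early 2-cell, and 51.5 and 34.3 in ICM. Its partner Gtf2f2, chosen after its values were seen, was at 13.8 FPKM in mTBE and 26.7 in control embryos (-0.91), short of the limit.

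Gtf2h5, the smallest TFIIH subunit, was at 11.6 FPKM in mTBE and 26.2 in control embryos, a difference of -1.11 in log2(FPKM + 1). It was at 18.2 FPKM in MII, 22.6 in PN5, 3.96 in early 2-cell, and 140 and 161 in ICM. The remaining 3 were Pol II genes close to the limit. Polr2m was at 8.18 FPKM in mTBE and 18.0 in control embryos (-1.05), with 5.02 in MII, 5.08 in PN5, 2.93 in early 2-cell, and 112 and 67.9 in ICM. Polr2i, a subunit known from yeast for a role in start site choice and fidelity, was at 5.67 FPKM in mTBE and 12.7 in control embryos (-1.04), with 21.5 in MII, 7.12 in PN5, 5.46 in early 2-cell, and 116 and 186 in ICM. Polr2a, given above, differed by -1.0, the limit itself. All 3 passed narrowly. The median log2 ratio of the 7073 symbols at 5 FPKM or more in both libraries was -0.10. With this ratio set to 0 the 3 genes stood at -0.96, -0.95 and -0.91, leaving 3 of the 49 genes lower and 1, Polr2l, higher. Of all symbols measured, 8.50% were then lower and 6.78% higher.

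With each library rescaled to a sum of 1000000, 8 of the 49 genes were lower and 1 was higher in mTBE embryos. Of all symbols 13.0% were then lower and 11.5% higher. The added 1 and the filter of 1 were kept after rescaling, so in every comparison with equal sums both stood for less than 1 FPKM. The sums before rescaling were close, 358284 FPKM in mTBE and 350614 in control embryos. A pseudocount of 0.1 FPKM without rescaling also gave 8 lower and 1 higher. The median of the TFIID genes was 0.15 with the median ratio set to 0 and 0.03 with equal sums, and 0 of the 17 passed under either. The median of the Pol II genes was -0.25 with the median ratio set to 0 and -0.38 with equal sums. Of 8 cumulus and granulosa cell markers, 6 were at 1 FPKM or more in each late 2-cell library, and their summed level was 21.6 FPKM in mTBE and 29.3 in control embryos. Amhr2 alone, at 2.12 FPKM in mTBE and 16.7 in control embryos, set this order, since the other 7 summed to 19.5 FPKM in mTBE and 12.6 in control embryos, with Foxl2 at 7.2 FPKM in mTBE and 1.04 in control embryos. The part of these cells in the differences was not tested.

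**Figure D3:**
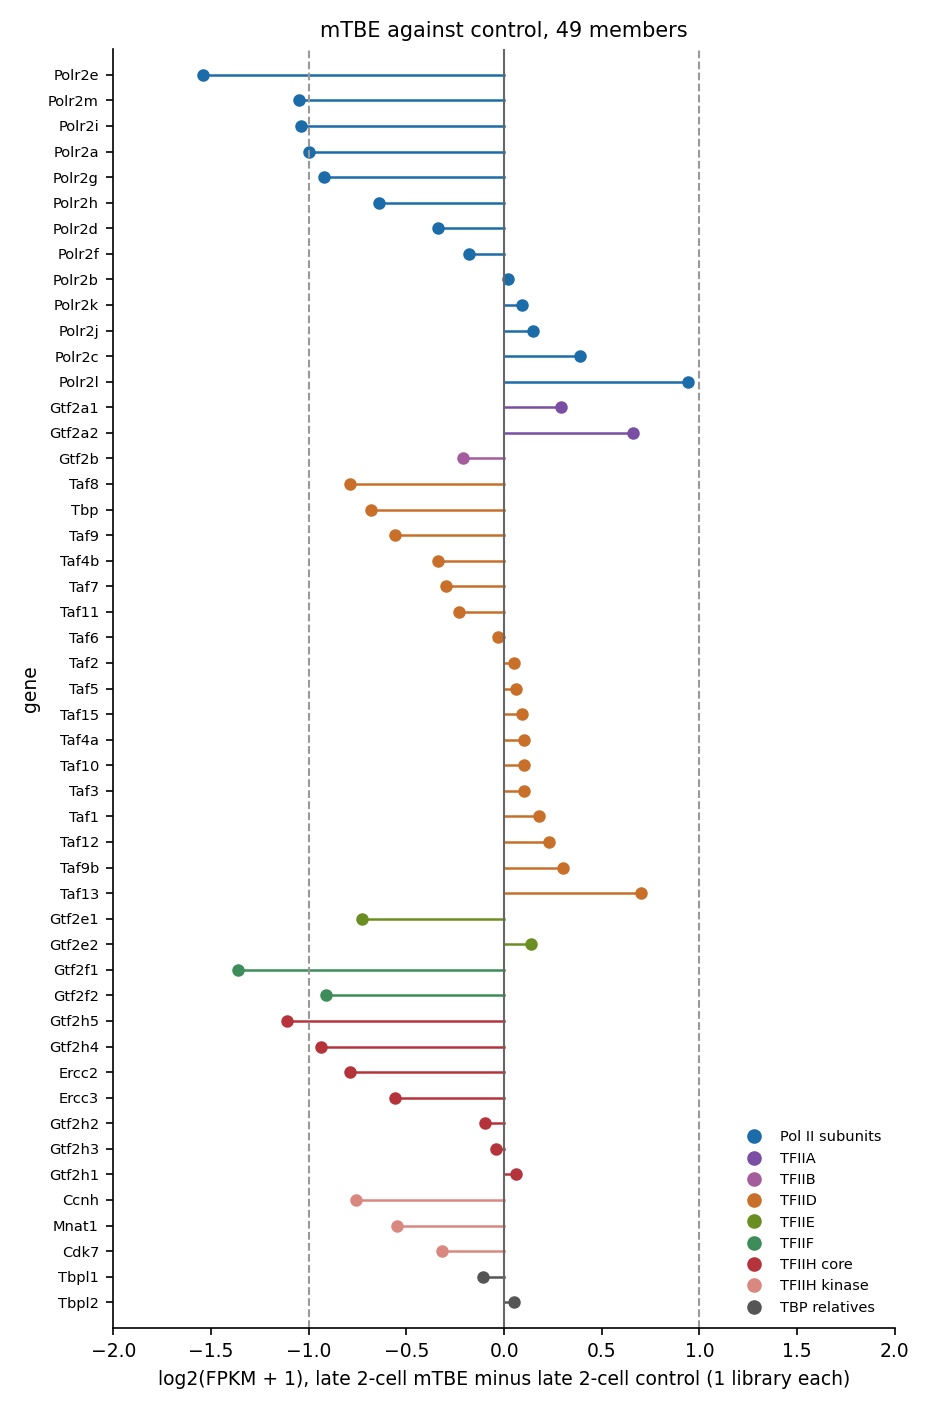
Difference in log2(FPKM + 1), late 2-cell mTBE minus late 2-cell control, for each of the 49 genes grouped and coloured by complex (1 library a group); dashed lines mark 1 and -1. 6 genes lie at or beyond -1 (Polr2e, Gtf2f1, Gtf2h5, Polr2m, Polr2i, Polr2a), 0 lie beyond 1, and the 17 TFIID genes lie between -0.79 and 0.70.

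Late 2-cell control embryos were compared with PN5 zygotes within their shared table, the span over which the embryonic genome is activated. Of the 49 genes, 13 were higher and 6 lower in the late 2-cell control embryos, or 26.5% and 12.2%, against 30.5% higher and 17.0% lower of all 13022 symbols measured. The median difference was 0.18 over the 49 genes and 0.28 over all symbols. Both shares of the 49 genes thus lay below those of all symbols. The Pol II genes held 7 of the 13 higher and 2 of the 6 lower ones, with a median of 1.14. TFIID held 3 higher and 0 lower of 17 (median 0.18), the TFIIH core 1 and 1 of 7, and the kinase module 0 and 2 of 3.

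The largest positive difference was in Polr2h, at 20.2 FPKM in control embryos and 1.31 in PN5 (3.20). Gtf2h4 was at 7.71 FPKM in control embryos and 0.764 in PN5 (2.30), and Taf4b at 51.6 FPKM in control embryos and 11.3 in PN5 (2.1). All 3 were among the lower genes of their complexes in the oocyte. The largest negative difference was in Gtf2b, at 31.5 FPKM in control embryos and 193 in PN5 (-2.58). Mnat1 was at 4.78 FPKM in control embryos and 17.0 in PN5 (-1.64), and Gtf2h2, a TFIIH core subunit, at 5.55 FPKM in control embryos and 18.2 in PN5 (-1.55). Polr2a was 1.16 higher and Tbpl1 1.40 higher, while Tbp (-0.92) and Tbpl2 (-0.42) did not reach the limit. The median log2 ratio of the 6112 symbols at 5 FPKM or more in both libraries was -0.13. The median difference over all symbols, 0.28, has the other sign. With the ratio of -0.13 set to 0, the split was 14 higher and 5 lower, against 33.2% and 14.9% of all symbols. With equal sums it was 13 and 6, against 36.0% and 17.4%.

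The mTBE embryos, set against the same PN5 zygotes, had 9 of the 49 genes higher and 11 lower, against 29.4% higher and 17.7% lower of 13489 symbols, with medians of -0.25 over the 49 genes and 0.27 over all symbols. Both late 2-cell comparisons share the PN5 library, so their differences are given side by side only. Polr2h was 2.55 higher in mTBE embryos than in PN5 and 3.20 higher in control embryos. Polr2l, a small shared subunit, was 2.07 higher in mTBE embryos and 1.14 higher in control embryos. Polr2j, whose protein pairs with that of Polr2c in assembly of the enzyme, was 1.77 higher in mTBE embryos and 1.62 higher in control embryos. These 3 small subunits were thus above their PN5 level in both late 2-cell libraries. For Polr2l that reference was low, at 1.25 FPKM in PN5 against 26.1 in MII and 7.86 in early 2-cell embryos. Its late 2-cell levels were 8.47 FPKM in mTBE and 3.95 in control embryos. The difference of Gtf2b from PN5 was -2.79 in mTBE embryos and -2.58 in control embryos, that of Mnat1 was -2.19 in mTBE and -1.64 in control embryos, and that of Gtf2f2 was -1.88 in mTBE and -0.97 in control embryos. Polr2a was at 8.20 FPKM in mTBE embryos and 7.26 in PN5, a difference of 0.16. Tbp was at 11.5 FPKM in mTBE embryos and 37.0 in PN5, a difference of -1.60. The median log2 ratio of the 5998 symbols at 5 FPKM or more in both libraries was -0.18, again opposite in sign to the median over all symbols. With this ratio set to 0, the split turned to 14 higher and 10 lower, against 33.6% and 14.8% of all symbols. With equal sums it was 9 and 12, against 36.4% and 17.8%.

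Early 2-cell embryos and MII oocytes lie in 2 tables that were normalized separately. Of the 49 genes, 25 were lower and 0 higher in early 2-cell embryos, or 51.0% lower, against 28.8% lower and 4.02% higher of all 10675 symbols measured. The median was -1.06 over the 49 genes and -0.58 over all symbols. The median of all symbols thus also lay below MII. The median log2 ratio of the 5309 symbols at 5 FPKM or more in both libraries was -0.57. With this ratio set to 0, the median of the 49 genes was -0.51. The split was then 19 lower and 2 higher (Polr2c and Taf10), against 14.3% lower and 9.58% higher of all symbols. With equal sums it was 21 lower and 2 higher, against 18.3% lower and 14.7% higher of all symbols.

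Counts were unequal between the complexes in this step, with no test of the difference. Lower in early 2-cell embryos were 8 of the 13 Pol II genes (median -1.23), 12 of the 17 genes of TFIIA, TFIIB, TFIIE, TFIIF and TFIIH (-1.59) and 5 of the 17 TFIID genes (-0.26). After the median shift the medians were -0.69 for Pol II and 0.21 for TFIID, and with equal sums -0.83 and 0.12, so the sign for TFIID turned with the scaling. The largest difference was in Polr2k, a small shared subunit, at 2.73 FPKM in early 2-cell embryos and 37.5 in MII (-3.37). Polr2d was at 24.3 FPKM in early 2-cell embryos and 165 in MII (-2.71), and Polr2b at 4.15 FPKM in early 2-cell embryos and 28.7 in MII (-2.53). All 3 are subunits of the polymerase. Tbp was at 9.49 FPKM in early 2-cell embryos and 30.8 in MII (-1.60), and Tbpl2 at 1.42 FPKM in early 2-cell embryos and 2.80 in MII (-0.65). Tbp thus passed the limit and Tbpl2, at its low level, did not; the added 1 FPKM understates the difference of a gene this low.

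PN5 zygotes were compared with MII oocytes in the same way, also across separately normalized tables. Of the 48 genes measured, 3 were higher and 4 lower in PN5, or 6.25% and 8.33%, against 8.77% higher and 9.23% lower of 10711 symbols, with medians of 0.30 and 0.24. The higher genes were both TFIIA genes and Taf7. Gtf2a2, the small TFIIA subunit, was at 57.0 FPKM in PN5 and 19.4 in MII (1.51), Gtf2a1 at 125 FPKM in PN5 and 50.2 in MII (1.30), and Taf7 at 92.6 FPKM in PN5 and 41.4 in MII (1.14). The lower genes were all Pol II genes. Polr2l was at 1.25 FPKM in PN5 and 26.1 in MII (-3.59), and Polr2k at 10.5 FPKM in PN5 and 37.5 in MII (-1.74). Polr2i was at 7.12 FPKM in PN5 and 21.5 in MII (-1.47), and Polr2c, named since it is the last of 4, at 64.9 FPKM in PN5 and 134 in MII (-1.04). The median log2 ratio of the 6397 symbols at 5 FPKM or more in both libraries was 0.33. With this ratio set to 0, the split turned to 1 higher and 7 lower of 48 genes, against 3.28% and 12.4% of all symbols. With equal sums it was 2 and 7 of 49 genes, against 5.55% and 14.7%. The background thus shifted too. The Pol II median was -0.31, and -0.63 under both scalings.

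**Figure D4:**
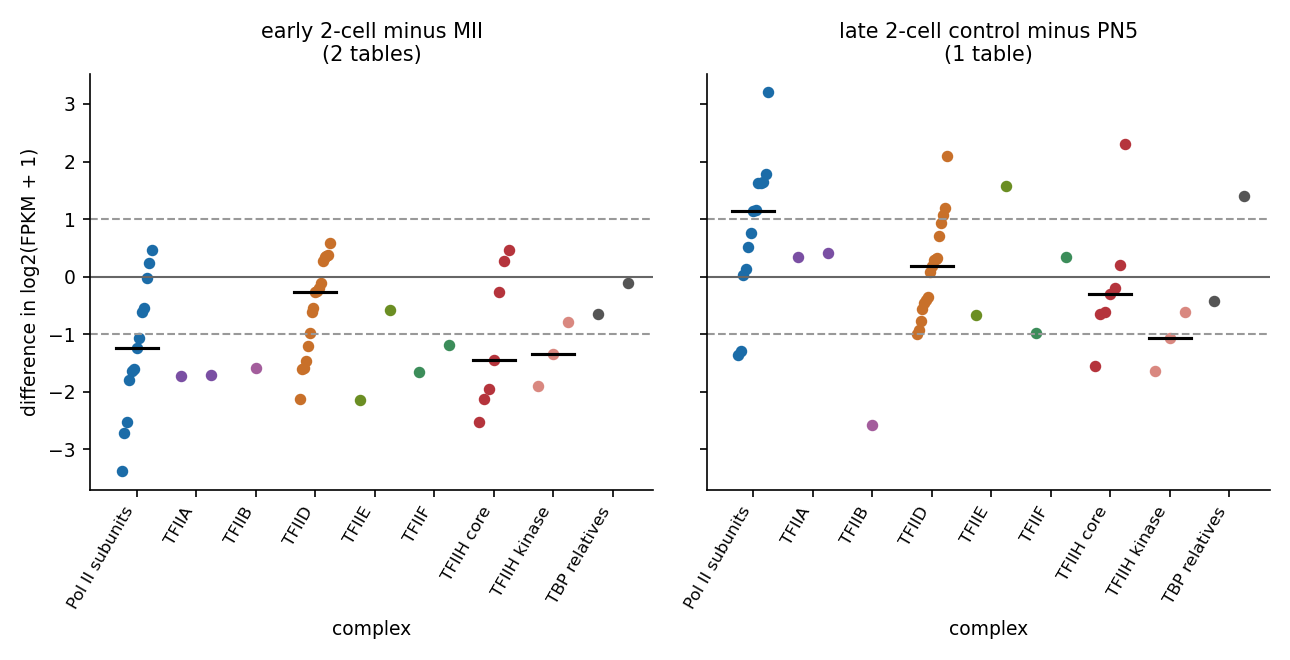
Difference in log2(FPKM + 1) of each gene, by complex, for early 2-cell minus MII (left, across 2 tables) and late 2-cell control minus PN5 (right, within 1 table); dashed lines mark 1 and -1, and black bars the median of complexes with 3 or more genes. On the left 25 genes lie at or below -1 and TFIID centres nearest to 0; on the right the Pol II genes centre at 1.14.

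The ICM libraries offered the only replicates. Of 47 genes measured there, 46 were within 2-fold between replicate 1 and replicate 2, and the median absolute difference was 0.29 on the log2(FPKM + 1) scale. Polr2k alone passed the limit, at 75.5 FPKM in replicate 1 and 28.1 in replicate 2 (1.40), against 2.79% higher and 2.31% lower of 9983 symbols. Tbp averaged 21.7 ± 7.38 FPKM, Tbpl1 13.8 ± 1.90 FPKM and Polr2a 9.83 ± 0.369 FPKM (SD, n = 2 each). This spread holds for Smart-seq2 libraries and gives no error for the total RNA libraries.

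Set beside late 2-cell control embryos, the 2 ICM libraries lay mostly above it for Pol II and mostly below it for TFIID. Both ICM libraries were above the control library for 9 of the 13 Pol II genes and below it for 3 (Polr2a, Polr2b and Polr2c). Both were above it for 2 of the 17 TFIID genes (Taf7 and Taf9) and below it for 13. Over all 49 genes both were above for 24 and below for 20. Of all 13636 symbols at 1 FPKM or more in any of the 3 libraries, 34.9% were above and 59.8% below. Most symbols thus lay below the control library, as most TFIID genes did, whereas most Pol II genes lay above it. The TFIIH core was above for 6 of 7 genes and the kinase module for 3 of 3. Stage, library type and table change together here, so they cannot be told apart. The trophectoderm markers in the ICM libraries, given above, touch this comparison too.

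Taf9b, Taf3 and Polr2e serve as examples chosen after their values were seen. Taf9b was at 0.0252 and 0 FPKM in ICM, against 31.8 in the control library. Taf3 was at 2.58 and 2.69 FPKM in ICM, against 67.2 in the control library, and Polr2e at 302 and 340 FPKM, against 43.0. The 2 ICM libraries lay close together for each of them, far from the control library.

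**Figure D5:**
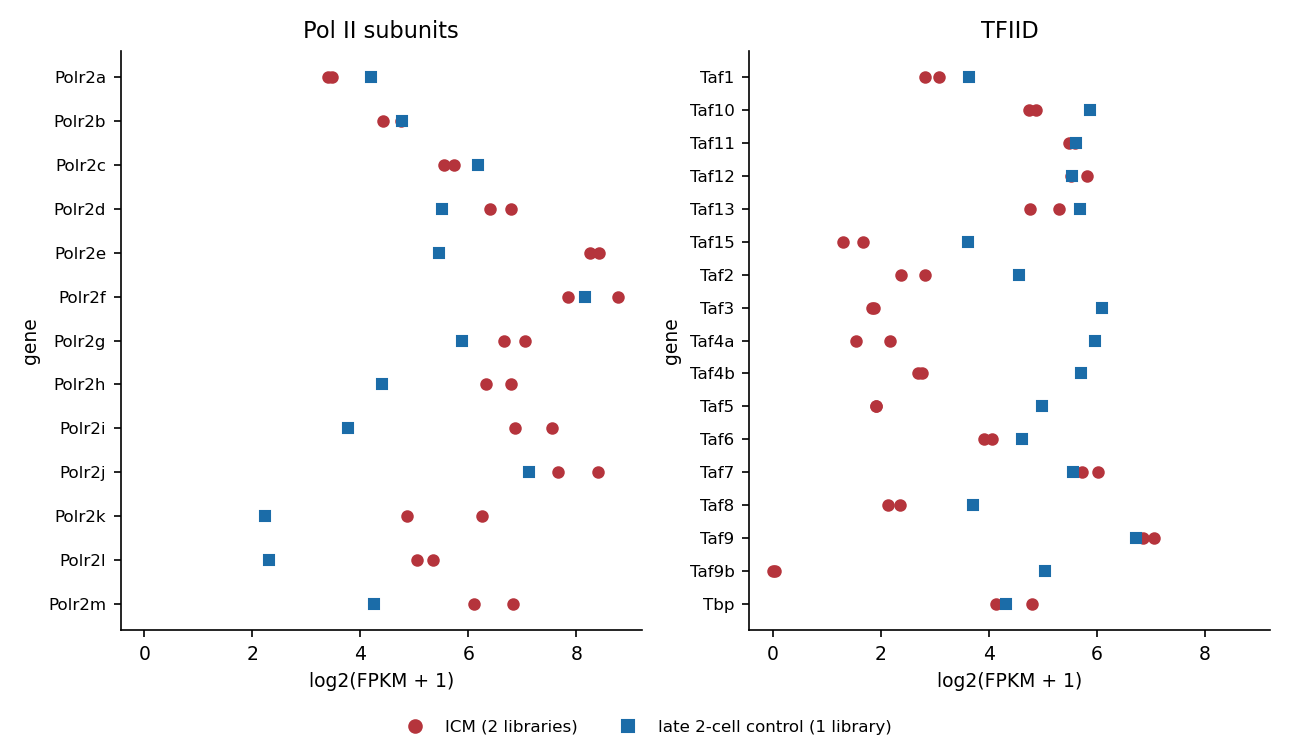
Levels of the Pol II genes (left) and TFIID genes (right), as log2(FPKM + 1), in the 2 libraries labelled ICM and in the late 2-cell control library; the libraries were made with different methods and lie in separate tables. Most Pol II genes lie higher in both ICM libraries (9 of 13) and most TFIID genes lower (13 of 17). Of all 13636 symbols measured, 34.9% lie higher and 59.8% lower.

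Other genes of the pathway were read in the same way, from lists of TAF and TFIIA paralogues outside the pattern, regulators of TBP, factors of Pol II assembly and import, phosphatases of its tail, and TFIIS. Of 24 measured, 0 were higher and 4 lower in mTBE than in control embryos (median -0.31), or 16.7% lower against 9.99% of all symbols. Gpn3, a GTPase needed for the import of Pol II into the nucleus, was at 5.62 FPKM in mTBE and 27.7 in control embryos (-2.11), and its relative Gpn1 at 9.41 FPKM in mTBE and 22.4 in control embryos (-1.17). The other two encode TAF relatives of the SAGA complex. Taf6l was at 2.27 FPKM in mTBE and 9.22 in control embryos (-1.64), and Taf5l at 7.09 FPKM in mTBE and 15.5 in control embryos (-1.03). Against PN5, 9 of 24 were higher and 4 lower in control embryos, or 37.5% and 16.7%, near the 30.5% and 17.0% of all symbols. The largest of these was in Gpn3, at 27.7 FPKM in control embryos and 0.804 in PN5 (3.99). Dr1, which encodes a repressor that binds TBP, was at 53.6 FPKM in control embryos and 2.79 in PN5 (3.85), and Rprd1b, whose protein binds the Pol II tail, at 13.1 FPKM in control embryos and 0.235 in PN5 (3.51). The largest negative difference was in Tcea3, which encodes a form of the elongation factor TFIIS, at 4.81 FPKM in control embryos and 37.1 in PN5 (-2.71). Gtf2a1l was at 2.33 FPKM in control embryos and 6.90 in PN5 (-1.25). Drap1, the partner of Dr1, was at 26.4 FPKM in control embryos and 78.9 in PN5 (-1.54). Dr1 and Drap1 thus differed in opposite directions over genome activation. In early 2-cell embryos 1 of 22 was higher and 8 lower than in MII, or 4.55% and 36.4%, against 4.02% and 28.8% of all symbols. In PN5 0 of 22 were higher and 4 lower than in MII, or 18.2% lower, against 8.77% higher and 9.23% lower of all symbols.

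Mediator and the other nuclear polymerases serve to place the mTBE values. Against control embryos, 5 of 33 Mediator genes were lower (median -0.17), 4 of 10 Pol III genes (-0.90) and 2 of 5 Pol I genes (-0.93), with 0 higher in each. These are 15.2%, 40.0% and 40.0% lower, against 9.99% lower and 5.57% higher of all symbols, whose median was -0.05. The Pol II genes, at 4 of 13 lower and a median of -0.34, lay between Mediator and the other polymerases. With the median ratio set to 0, 1 of the 13 Pol II genes was lower and 1 higher, with a median of -0.25. The other lists were not rescaled, so the order holds for the unscaled values only. These differences between lists have no test with 1 library a group.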

How the data were processed

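RNA was measured in 7 libraries: 5 of total RNA and 2 of ICM. The series holds 109 other samples, which were not used. FPKM per gene symbol were deposited by the authors in 4 tables. Per the submitters' processing notes the tools were TopHat2 2.1.1, Cufflinks 2.1.1 and CASAVA 1.8, with build mm9. Use of strand and of multi-mapped reads is not given in the sources used here, so overlapping, antisense and near-identical genes are uncertain. Read depth is unknown. The single MII value column was matched to the total RNA library through the sample its table is listed with.

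Members were found by symbol; rows sharing a symbol were summed (0 rows among members), and 0 value columns lacked a sample. RefSeq (GRCm38.p6) matched 48 members by symbol and 1 by synonym, and 3 have named pseudogenes. Differences are of log2(FPKM + 1), a pseudocount of 1 FPKM, for symbols that reach 1 FPKM in either library. They count from a difference of 1. The rule was checked on simulated data with changes well past this limit in genes well above 1 FPKM. That check does not cover calls near the limit or low genes. With 1 library a group no p-value was calculated. ICM replicates carry no statement on separate animals. Alternatives were a pseudocount of 0.1, filters of 5 FPKM and none, 2 scalings, 1.5-fold and the highest row of a symbol. Median scaling set to 0 the median log2 ratio of symbols at 5 FPKM or more in both libraries. Sum scaling set each library to 1000000 and kept the added 1 and the filter of 1, which then stood for less than 1 FPKM. Named in full were the TBP family, Polr2a, the highest and lowest member of larger complexes in MII, 4 paralogue pairs and members past the limit in mTBE against control; elsewhere the 3 largest each way at 5 FPKM or more. Members and lists were chosen with earlier results of these data known. Python 3.11.15, pandas 2.3.3, NumPy 2.4.6 and matplotlib 3.10.9 were used.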

Additional observations from a re-analysis of the deposited data

How the results depend on the processing

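The differences between total RNA groups rest on 1 library each and have no replicate check, depth is unknown, and levels across tables depend on separate normalizations. No paired analysis was possible because no test was made and the total RNA groups share replicate number 1 alone. Of the main results under the alternatives, 115 were labelled the same, 23 moved and 2 weakened. A count was the same within 1.5-fold, and a median below 1 in size when it moved by less than 0.21, whatever its sign. Thus the median between ICM replicates, 0.04 and -0.10 with median scaling, was labelled the same. A reversal could be labelled only for differences of at least 1 in size, and 0 were. Of the values of single members past the limit, 447 stayed past it and 18 did not. The causes were not tested. For mTBE against control, members higher were 1 with a pseudocount of 0.1 FPKM, 1 with median scaling, 1 with sum scaling and 3 at 1.5-fold, and members lower were 3 with median scaling and 15 at 1.5-fold. For control against PN5, members lower were 14 at 1.5-fold. For mTBE against PN5, members higher were 14 with median scaling and 16 at 1.5-fold. For early 2-cell against MII, members higher were 2 with median scaling, 2 with sum scaling and 1 at 1.5-fold, and the median difference was -0.51 with median scaling and -0.64 with sum scaling. For PN5 against MII, members higher were 7 with a pseudocount of 0.1 FPKM, 1 with median scaling and 16 at 1.5-fold, members lower were 7 with median scaling, 7 with sum scaling and 7 at 1.5-fold, and the median difference was 0.01 with median scaling and 0.06 with sum scaling. For ICM replicate 1 against replicate 2, members lower were 1 with median scaling and 3 at 1.5-fold, and members higher were 7 at 1.5-fold. Leaving out 1 ICM library gave mean levels of 16.5 to 26.9 FPKM for Tbp, 12.4 to 15.1 FPKM for Tbpl1 and 9.57 to 10.1 FPKM for Polr2a.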
